A study of Mus musculus with 144 samples.

Results

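The genes described here are 35 chaperone genes, named in the study's expression table by their symbols, out of 55364 genes in that table. They were found by symbol and cover the HSP90, HSP70 and HSP110 heat shock proteins of the cytosol, a small heat shock protein, J proteins, BAG proteins, cochaperones of HSP90 and HSP70, and the 8 subunits of the cytosolic chaperonin CCT. Hspa9, Hspd1 and Hspe1 belong to the same list, but their proteins work in the mitochondrion. The series profiled RNA in 144 wells, each sorted to hold 1 retinal microglial cell, from Iba1-EGFP mice of the C57BL/6 strain aged 20 to 22 months. In this transgene a green fluorescent protein is driven from the regulatory region of Iba1 (Aif1), a gene of microglia that other macrophages also use. By their titles, 54 wells came from retina without optic nerve crush (here uncrushed), 36 from retina at day 2 after crush and 54 from retina at day 4 after crush, all on this genotype. The 18 day 4 wells of plate 1 carry a treatment tag of day 2, and they were grouped by title.

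Chaperones bind unfolded or partly folded proteins and release them through cycles of ATP binding and hydrolysis. HSP70 acts early on unfolded chains with J proteins and nucleotide exchange factors, HSP90 acts later on kinases, receptors and other clients, and CCT is a double ring that encloses a client and is required for folding actin and tubulin. Some of these genes are active in unstressed cells, whereas others are induced by heat shock factor 1 when unfolded proteins accumulate; microglia use CCT clients such as actin when they change shape or move.

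The labels name no animals, and each group was therefore treated as 1 sample with no replicate. The values below therefore carry no p-value, shares of wells carry exact Clopper-Pearson 95% intervals that cover counting error only, and a difference of 1 or more on the log2(FPKM + 1) scale is a rule of size and not a test. Reads per well, recovered from the deposited values, left 88 deep wells with at least 60079 reads and 56 shallow wells with at most 14205. The deep wells, which are used unless stated, comprised 39 uncrushed, 25 day 2 and 24 day 4 wells, and only 2 of the day 4 ones were on plate 3. Each group filled its own rows of the 3 plates, so group and row cannot be told apart. Deep wells also differed in the genes they held, with medians of 3161, 3777 and 4992 genes with any read for uncrushed retina, day 2 and day 4, and 1277, 1524 and 2212 after thinning to 50000 reads. At least 3 of 11 microglia markers were present in 37, 21 and 22 deep wells, and the other 2, 4 and 2 wells held fewer. The deep day 4 wells of plate 3 held few genes, 1266 and 2213.

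The chaperone genes were found in a larger share of deep wells at day 4 than in either other group. A gene was counted as present in a well at 10 or more reads. The share of deep wells holding a gene, taken as the median over the 35 genes, stood at 12.8% for uncrushed retina, 24% for day 2 and 50% for day 4. The day 4 share was above both the uncrushed and the day 2 share for 35 of 35 genes, and the day 2 share was above the uncrushed share for 26. Genes present in at least 50% of deep wells numbered 2 for uncrushed retina, 3 for day 2 and 18 for day 4. These counts were not set against the shares of all genes, and day 4 wells held more genes of any kind (median 4992 against 3161 uncrushed). At like gene number, described below, the day 4 share was above the uncrushed share for only 20 of the 35 genes. A single deep well held a median of 4 of the 35 genes in uncrushed retina (range 0 to 18), 7 at day 2 (0 to 22) and 14.5 at day 4 (1 to 33), so the groups overlapped widely while the highest wells were those of day 4. After thinning each well to 50000 reads, with 5 thinned reads as the minimum, the medians were 3, 6 and 13. The summed level of the 35 genes had medians of 4624 reads per 1000000 (RPM), 6632 and 11681 in the same order, with ranges of 10.5 to 21602, 184 to 19119 and 2894 to 47086.

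**Figure D1:**
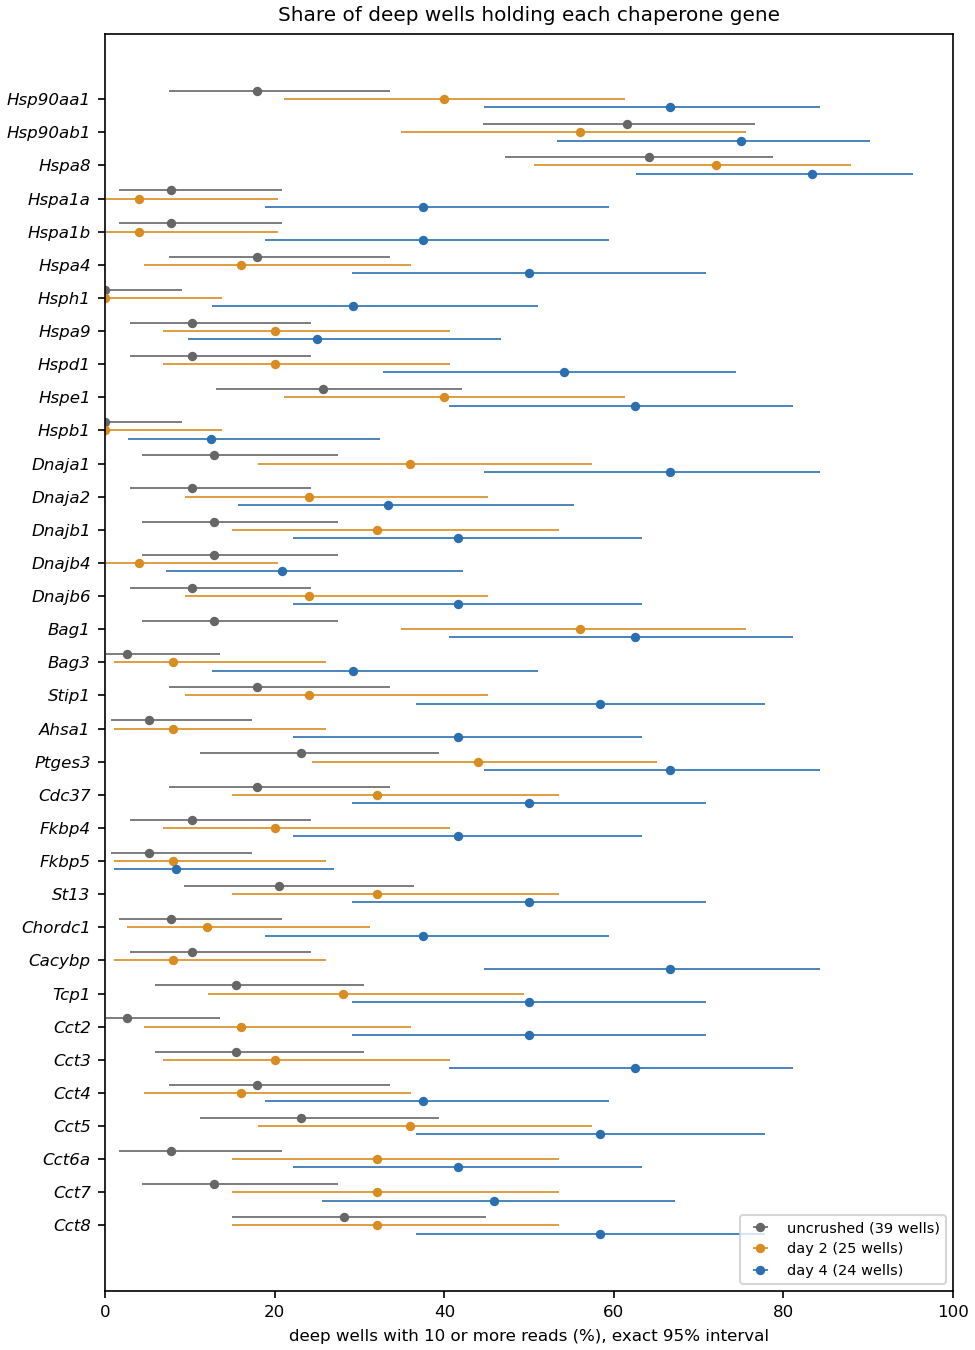
Share of deep wells (%) with 10 or more reads of each of the 35 chaperone genes for uncrushed (39 wells), day 2 (25) and day 4 (24) retina; points are shares and bars exact Clopper-Pearson 95% intervals over wells. The day 4 point lies to the right of both others in each row, from 8.33% for Fkbp5 to 83.3% for Hspa8.

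Read against all genes, the day 4 list stood above the background and the day 2 list did so by less. For day 4 minus uncrushed, 34 of the 35 genes passed the filter of FPKM 1 or more in at least 5% of the deep wells, and 31 were at 1 or more, where 26.5% of all 11089 genes tested were. Of these, Hsph1 and Bag3 passed the filter only through the day 4 wells, and 29 of the 32 that reached the 5% in each group by itself were at 1 or more. Their median difference was 2.05 (2.00 over all 35), against 0.50 over all genes tested. With that shift of 0.50 taken off, 22 of the 34 were still at 1 or more, where 13.7% of all genes were. For day 2 minus uncrushed, 33 passed the filter and 10 were at 1 or more, where 13.8% of 9716 genes were, with medians of 0.52 (0.48 over all 35) and 0.26. With the shift of 0.26 taken off, 4 of those 33 stayed at 1 or more, where 8.48% of all genes did, a share not far from that of the members. No member was at -1 or less in either, where 0.712% and 1.06% of all genes were. Both comparisons use the same uncrushed wells. The share of all genes at 1 or more depends on the filter. With FPKM 1 or more asked in at least 25% of the deep wells, it was 45.7% at day 4, with a median of 0.87. All 23 of 23 members tested there were at 1 or more, with a median of 2.28. At day 2 the same filter gave 7 of 15 members, where 26.3% of all genes were, with medians of 0.90 and 0.40. For day 4 minus day 2, 22 of 35 genes were at 1 or more, where 12% of 12615 genes were, and none at -1 or less, where 1.23% were. Of these 35, 5 passed the filter only through the day 4 wells (Hspa1a, Hspa1b, Hsph1, Hspb1 and Dnajb4), and 19 of the 30 that passed in each group were at 1 or more.

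The day 4 difference was positive on plates 1 and 2 and not on plate 3. The day 4 wells of plate 1 are those with the treatment tag of day 2. On plate 1 the day 4 mean was above the uncrushed mean for 34 of 35 genes (median difference 1.90, 12 against 11 deep wells), and on plate 2 for 35 (2.99, 10 against 15). On plate 3, with 2 deep day 4 wells against 13, only 3 genes were above and 30 were below, with a median of -0.95 over all 35. Those 2 wells held 1 chaperone gene each at 10 reads, Hspa8 in one and Hsp90ab1 in the other. For day 2 the plate medians were 0.83, -0.12 and 0.23. All genes that passed the filter on plates 1, 2 and 3 had day 4 medians of 0.58, 0.81 and -0.48. Members that passed the same filter had 1.90, 3.23 and -1.05. At day 2 the medians over all genes were 0.45, 0.02 and 0.22, and those of such members 1.03, -0.20 and 0.29. The fall on plate 3 at day 4 was thus shared in direction by genes at large. With the shallow wells included, 19 of the 34 genes tested were at 1 or more at day 4, where 9.4% of all genes were, 4 of 31 at day 2, where 7.99% were, and 13 of 34 for day 4 minus day 2, where 3.63% were.

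**Figure D2:**
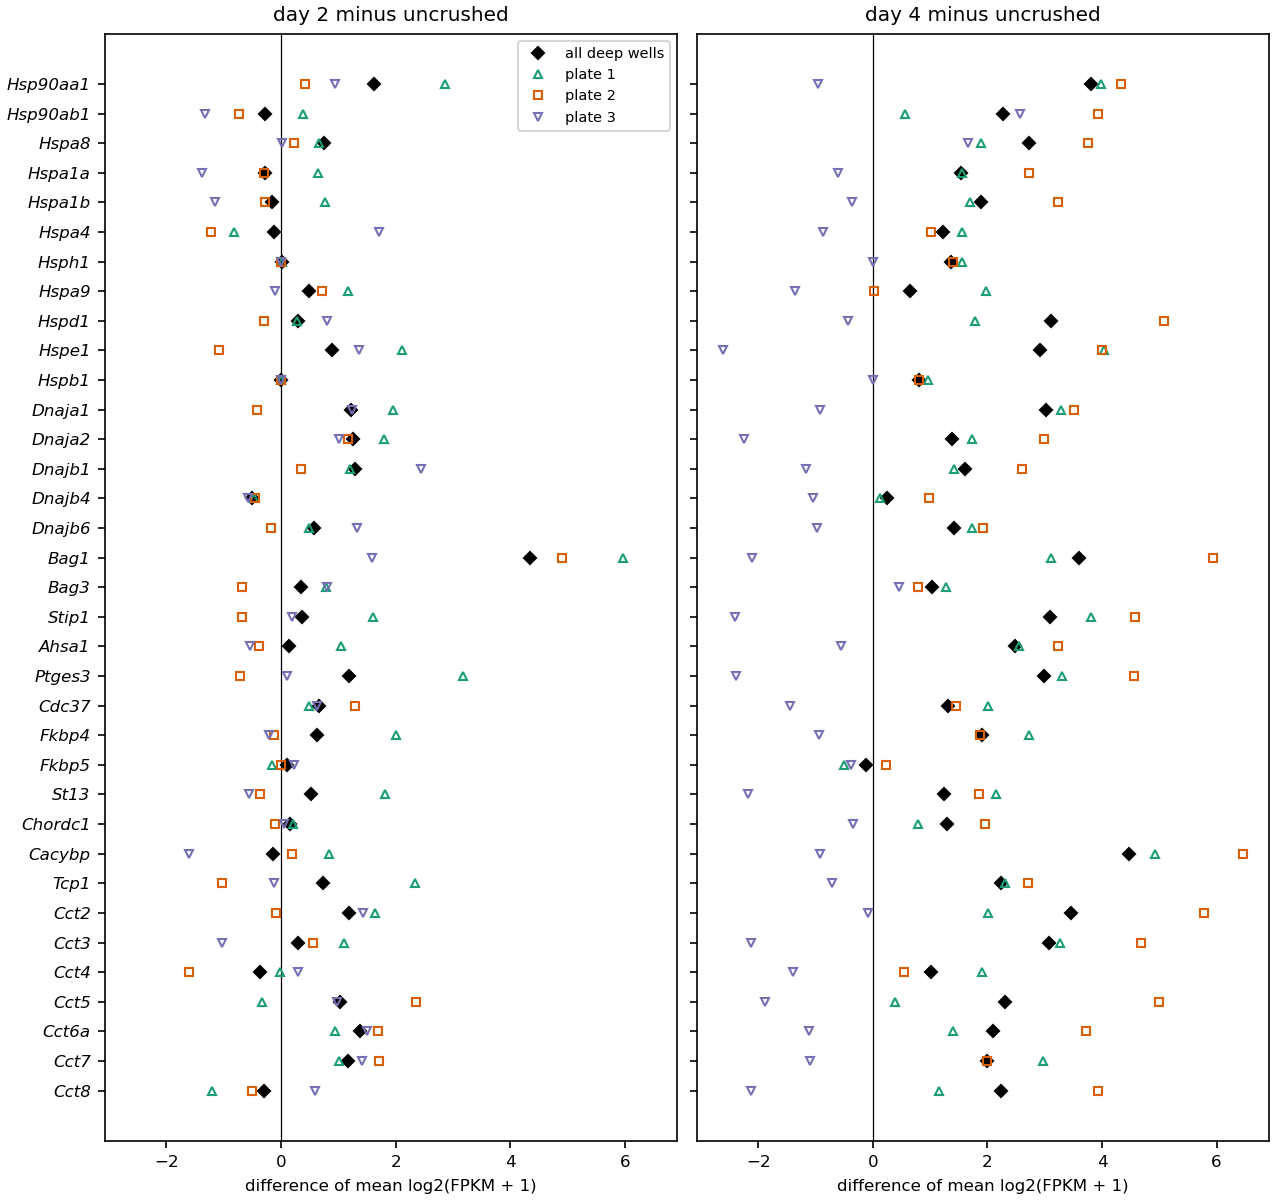
Difference of mean log2(FPKM + 1) in each chaperone gene for day 2 (left) and day 4 (right) minus uncrushed retina; black diamonds are all deep wells and open marks each plate. At day 4 the marks of plates 1 and 2 lie above 0 for nearly all genes while those of plate 3, with 2 day 4 wells, lie mostly below; at day 2 Bag1 stands at 4.35 and most others lie nearer 0.

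Among the HSP90 genes, the inducible form differed more from uncrushed retina on both days than the constitutive form, which was in most wells of all 3 groups. Hsp90aa1, which encodes the stress-inducible HSP90 alpha (ENSMUSG00000021270, chr12:110690605-110702728 of GRCm38, minus strand), ran from 0 to 938 RPM in uncrushed wells (median 0.335), 0 to 2159 at day 2 (3.85) and 0 to 2395 at day 4 (382). It was present in 7 of 39, 10 of 25 and 16 of 24 deep wells (17.9%, interval 7.54 to 33.5; 40%, 21.1 to 61.3; 66.7%, 44.7 to 84.4). The ranges overlapped from 0 up, and the interval of day 4 lay wholly above that of uncrushed retina. Its mean log2(FPKM + 1) was 1.27 ± 2.37 (SD over wells), 2.90 ± 3.37 and 5.07 ± 3.53, a difference from uncrushed retina of 1.63 at day 2 and 3.80 at day 4. Hsp90ab1, the constitutive HSP90 beta, ran from 0 to 13411 RPM in uncrushed wells (median 155), 0 to 7157 at day 2 (126) and 0 to 8662 at day 4 (2135), and was present in 24, 14 and 18 deep wells. Its intervals overlapped in all 3 groups and its highest single well was an uncrushed one. The differences of Hsp90ab1 from uncrushed retina were -0.28 at day 2 and 2.28 at day 4, and for day 4 minus day 2 it was at 2.56 and Hsp90aa1 at 2.18.

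Of the HSP70 genes, Hspa8 was in most wells throughout and the inducible pair was rare outside day 4. Hspa8, the constitutive HSP70 of the cytosol (ENSMUSG00000015656, chr9:40800984-40810087, plus strand), had the highest median FPKM of its family over the 88 deep wells, 295. It ran from 0 to 5911 RPM in uncrushed wells (median 785), 1.80 to 4129 at day 2 (1404) and 0 to 47007 at day 4 (2323), with presence in 25, 18 and 20 wells (64.1%, 72% and 83.3%). The groups overlapped, and the value of 47007 RPM came from 1 day 4 well of plate 3 with 1266 genes, 1 chaperone gene and 1 of 11 microglia markers; the next highest day 4 well was at 12455. The differences of Hspa8 from uncrushed retina were 0.74 at day 2 and 2.72 at day 4.

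Hspa1a and Hspa1b encode the heat-inducible HSP70 and lie near each other on chromosome 17, on the minus strand. Their transcripts were identical at 99.1% of 2200 aligned bases, so how the reads divide between them is uncertain, and both were present in exactly the same wells. Hspa1a alone also shares 564 exonic bases with Gm20481 on the opposite strand. The 250 bases before each RefSeq start (GRCm38.p6, minus strand) were identical at 247 positions. They are shown because the pair is the textbook target of heat shock factor 1, for Hspa1a at chr17:34972157-34972406 and for Hspa1b at chr17:34959239-34959488, 5′ to 3′, with capitals marking GAANNTTC, a pair of inverted units of the heat shock element.
Hspa1a: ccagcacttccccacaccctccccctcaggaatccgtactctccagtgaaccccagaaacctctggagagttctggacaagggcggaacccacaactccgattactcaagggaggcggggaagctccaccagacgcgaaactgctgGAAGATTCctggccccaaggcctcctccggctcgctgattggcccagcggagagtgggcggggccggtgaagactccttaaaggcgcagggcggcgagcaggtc
Hspa1b: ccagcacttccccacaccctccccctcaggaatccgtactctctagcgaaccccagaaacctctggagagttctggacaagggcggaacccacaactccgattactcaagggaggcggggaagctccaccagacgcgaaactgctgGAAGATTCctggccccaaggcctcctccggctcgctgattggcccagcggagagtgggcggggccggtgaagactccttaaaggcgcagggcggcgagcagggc
The summed level of the pair ran from 0 to 903 RPM in uncrushed wells (median 0), 0 to 1297 at day 2 (0) and 0 to 1392 at day 4 (0.803). Either gene was present in 3 of 39 uncrushed wells (7.69%, 1.62 to 20.9), 1 of 25 day 2 wells (4%, 0.101 to 20.4) and 9 of 24 day 4 wells (37.5%, 18.8 to 59.4). A larger share of day 4 wells held the pair, although the intervals overlap. Hspa1a ran from 0 to 597 RPM in uncrushed wells, 0 to 491 at day 2 and 0 to 577 at day 4, with medians of 0, 0 and 0.140. Hspa1b ran from 0 to 305, 0 to 806 and 0 to 815 RPM, with medians of 0, 0 and 0.663. Their differences from uncrushed retina were -0.29 and -0.15 at day 2 and 1.54 and 1.90 at day 4.

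The HSP110 proteins exchange nucleotide on HSP70. Hspa4 ran from 0 to 1821 RPM in uncrushed wells (median 0), 0 to 869 at day 2 (0) and 0 to 599 at day 4 (9.78), and was present in 7, 4 and 12 wells. More day 4 wells held it, yet its highest well was an uncrushed one, and its difference was -0.12 at day 2 and 1.23 at day 4. Hsph1, which is strongly heat-inducible, was present in 0 of 39 uncrushed wells (interval 0 to 9.03%), in 0 of 25 at day 2 (0 to 13.7%) and in 7 of 24 at day 4 (29.2%, 12.6 to 51.1). The day 4 interval of Hsph1 lay above that of uncrushed retina and overlapped that of day 2. By the coarser limit of 3 counts, the zeros allow shares of up to 7.69% and 12%. At day 4 Hsph1 reached 639 RPM. All 7 of its wells held 8329 to 10849 genes, more than any uncrushed well, whose highest was 7711. Hspb1, a small heat shock protein that holds unfolded proteins without ATP, was also present at day 4 alone among deep wells, in 3 of 24 (12.5%, 2.66 to 32.4), with 0 reads in every deep well of the other groups. It ran from 0 to 187 RPM at day 4 with a median of 0, and its interval overlaps those of the groups in which it was not found.

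The mitochondrial members differed from one another. Hspe1, the lid of the mitochondrial chaperonin (ENSMUSG00000073676, chr1:55088132-55091307, plus strand), ran from 0 to 715 RPM in uncrushed wells (median 0.709), 0 to 773 at day 2 (0.916) and 0 to 1476 at day 4 (208), with presence in 10, 10 and 15 wells. Hspd1, the ring of the same chaperonin, was present in 4, 5 and 13 wells and ran up to 2639, 238 and 1038 RPM, so its highest well was uncrushed. The day 4 differences were 2.93 for Hspe1, 3.11 for Hspd1 and 0.65 for Hspa9, the mitochondrial HSP70, which was in 4, 5 and 6 wells. At day 2 they were 0.90, 0.29 and 0.48. All 3 values are uncertain where processed pseudogenes can share their reads: Hspd1-ps3 was present in 18 of the 22 deep wells with Hspd1, Hspa9-ps1 in 8 of 15 with Hspa9 and Hspe1-ps5 in 6 of 35 with Hspe1. Hspd1 and Hspe1 also overlap each other by 112 exonic bases on opposite strands.

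J proteins deliver clients to HSP70 and stimulate its ATPase. Dnaja1, which had the highest median FPKM of the 5 over the 88 deep wells (0.0985), ran from 0 to 1676 RPM in uncrushed wells (median 0), 0 to 1767 at day 2 (0.767) and 0 to 2242 at day 4 (342), and was present in 5 of 39 wells (12.8%, 4.30 to 27.4), 9 of 25 (36%) and 16 of 24 (66.7%, 44.7 to 84.4). The uncrushed and day 4 intervals of Dnaja1 were apart, with the day 2 share between them, and its differences were 1.22 at day 2 and 3.03 at day 4. It shares 608 of its 8629 exonic bases with Smu1 on the other strand. Dnajb1, the J protein of the heat shock response, ran from 0 to 1927, 0 to 1863 and 0 to 1993 RPM with medians of 0, 0 and 2.45, and was present in 5, 8 and 10 wells. Its upper ends were alike in the 3 groups, and its differences of 1.29 at day 2 and 1.62 at day 4 were nearer each other than those of Dnaja1. By mean FPKM over the deep wells Dnaja2 was above Dnaja1 in each group, at 142, 111 and 86.7. Dnaja2, Dnajb4 and Dnajb6, a J protein known for suppressing aggregation, differed by 1.39, 0.24 and 1.42 at day 4 and by 1.25, -0.50 and 0.58 at day 2. The processed pseudogene Dnajb6-ps was present in 11 of the 20 deep wells with Dnajb6, whose values are uncertain where reads can be shared.

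Bag1 was the member that stood out at day 2. It encodes a nucleotide exchange factor of HSP70 with a ubiquitin-like domain (ENSMUSG00000028416, chr4:40936398-40948294, minus strand). Bag1 ran from 0 to 1183 RPM in uncrushed wells (median 0), 0 to 9775 at day 2 (223) and 0 to 3194 at day 4 (144). It was present in 5 of 39 (12.8%, 4.30 to 27.4), 14 of 25 (56%, 34.9 to 75.6) and 15 of 24 deep wells (62.5%, 40.6 to 81.2). Both crush groups had intervals wholly above the uncrushed one, and day 2 and day 4 overlapped each other. Mean log2(FPKM + 1) of Bag1 was 1.35 ± 2.64 (SD over wells), 5.70 ± 4.46 and 4.95 ± 3.73, a difference of 4.35 at day 2 and 3.61 at day 4. The day 2 difference was 5.96, 4.91 and 1.58 on plates 1, 2 and 3, so it had the same sign on each, while the day 4 difference was 3.10, 5.93 and -2.11. Bag3, which links HSP70 with small heat shock proteins and autophagy and is heat-inducible, was present in 1, 2 and 7 wells. It ran from 0 to 1606, 0 to 264 and 0 to 234 RPM with medians of 0, so its highest well was uncrushed although more day 4 wells held it. The differences of Bag3 were 0.34 at day 2 and 1.03 at day 4.

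Of the 9 other cochaperones, Cacybp differed most at day 4. Cacybp, the calcyclin-binding protein, which has an HSP90-cochaperone fold and binds ubiquitin ligases (ENSMUSG00000014226, chr1:160202367-160212875, minus strand), ran from 0 to 3048 RPM in uncrushed wells, 0 to 497 at day 2 and 0 to 2633 at day 4, with medians of 0, 0 and 276. It was present in 4 of 39 (10.3%, 2.87 to 24.2), 2 of 25 (8%) and 16 of 24 wells (66.7%, 44.7 to 84.4). The day 4 interval lay above both others, although the highest single well was again uncrushed. Mean log2(FPKM + 1) of Cacybp was 0.86 ± 2.44 (SD over wells), 0.73 ± 1.96 and 5.33 ± 3.33, and the difference from uncrushed retina was -0.14 at day 2 and 4.47 at day 4. On plates 1 and 2 the day 4 difference was 4.92 and 6.46, and on plate 3 it was -0.92.

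Ptges3, the p23 cochaperone that stabilises closed HSP90, ran from 0 to 575, 0 to 687 and 0 to 1270 RPM with medians of 0, 1.63 and 156, and was present in 9, 11 and 16 wells. The share of wells with Ptges3 was lowest in uncrushed retina and highest at day 4, and its differences were 1.18 at day 2 and 3.00 at day 4. Its pseudogene Ptges3-ps was present in 20 of the 36 wells that held it. Stip1, which bridges HSP70 and HSP90, differed by 3.09 at day 4 and Ahsa1, the activator of the HSP90 ATPase, by 2.48, against 0.37 and 0.14 at day 2. Fkbp4, an HSP90 immunophilin of steroid receptor complexes, Cdc37, the kinase adaptor, Chordc1, an HSP90-binding protein, and St13, an HSP70-interacting protein, were between 1.24 and 1.90 at day 4. Fkbp5, an immunophilin induced by glucocorticoids, was the 1 member with a day 4 mean below the uncrushed mean (-0.12), and it was present in only 2 wells of each group.

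The CCT subunits, which occur in equal number in each ring, were found together in a minority of day 4 wells. All 8 were at 1 or more for day 4 minus uncrushed, from 1.02 for Cct4 to 3.46 for Cct2, where 26.5% of all genes were, and 4 of 8 at day 2, where 13.8% were. A deep well held a median of 1 subunit in uncrushed retina (range 0 to 6), 1 at day 2 (0 to 7) and 3.5 at day 4 (0 to 8). All 8 subunits were present in 7 day 4 wells and in 0 wells of the other groups, and 18, 8 and 4 wells held none. Those 7 wells held 8451 to 10849 genes, more than any uncrushed well, whose highest was 7711. In wells with 3000 to 6000 genes the medians were 2, 1.5 and 2 subunits, and the highest wells held 6, 6 and 5. Cct2 was present in 1, 4 and 12 wells (2.56%, 0.0649 to 13.5; 16%, 4.54 to 36.1; 50%, 29.1 to 70.9), and its single uncrushed well was at 18.2 RPM while day 2 wells reached 2195 and day 4 wells 1840.

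Cct5, the most abundant subunit by median FPKM over the 88 deep wells (1.01), ran from 0 to 5612 RPM in uncrushed wells (median 1.89), 0 to 4221 at day 2 (2.51) and 0 to 3541 at day 4 (108), with presence in 9, 9 and 14 wells. Its upper end was highest in uncrushed retina, and the differences were 1.03 and 2.31. Cct6a, the third largest difference at day 2, ran from 0 to 2938, 0 to 1071 and 0 to 1425 RPM with medians of 0, 0 and 0.745. It was present in 3, 8 and 10 wells, so both crush groups had more wells with it at no higher top level, and the differences were 1.38 and 2.10. Tcp1, Cct6a, Cct7 and Cct8 each share between 141 and 571 exonic bases with genes on the opposite strand, whose reads cannot be told apart without strand.

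**Figure D3:**
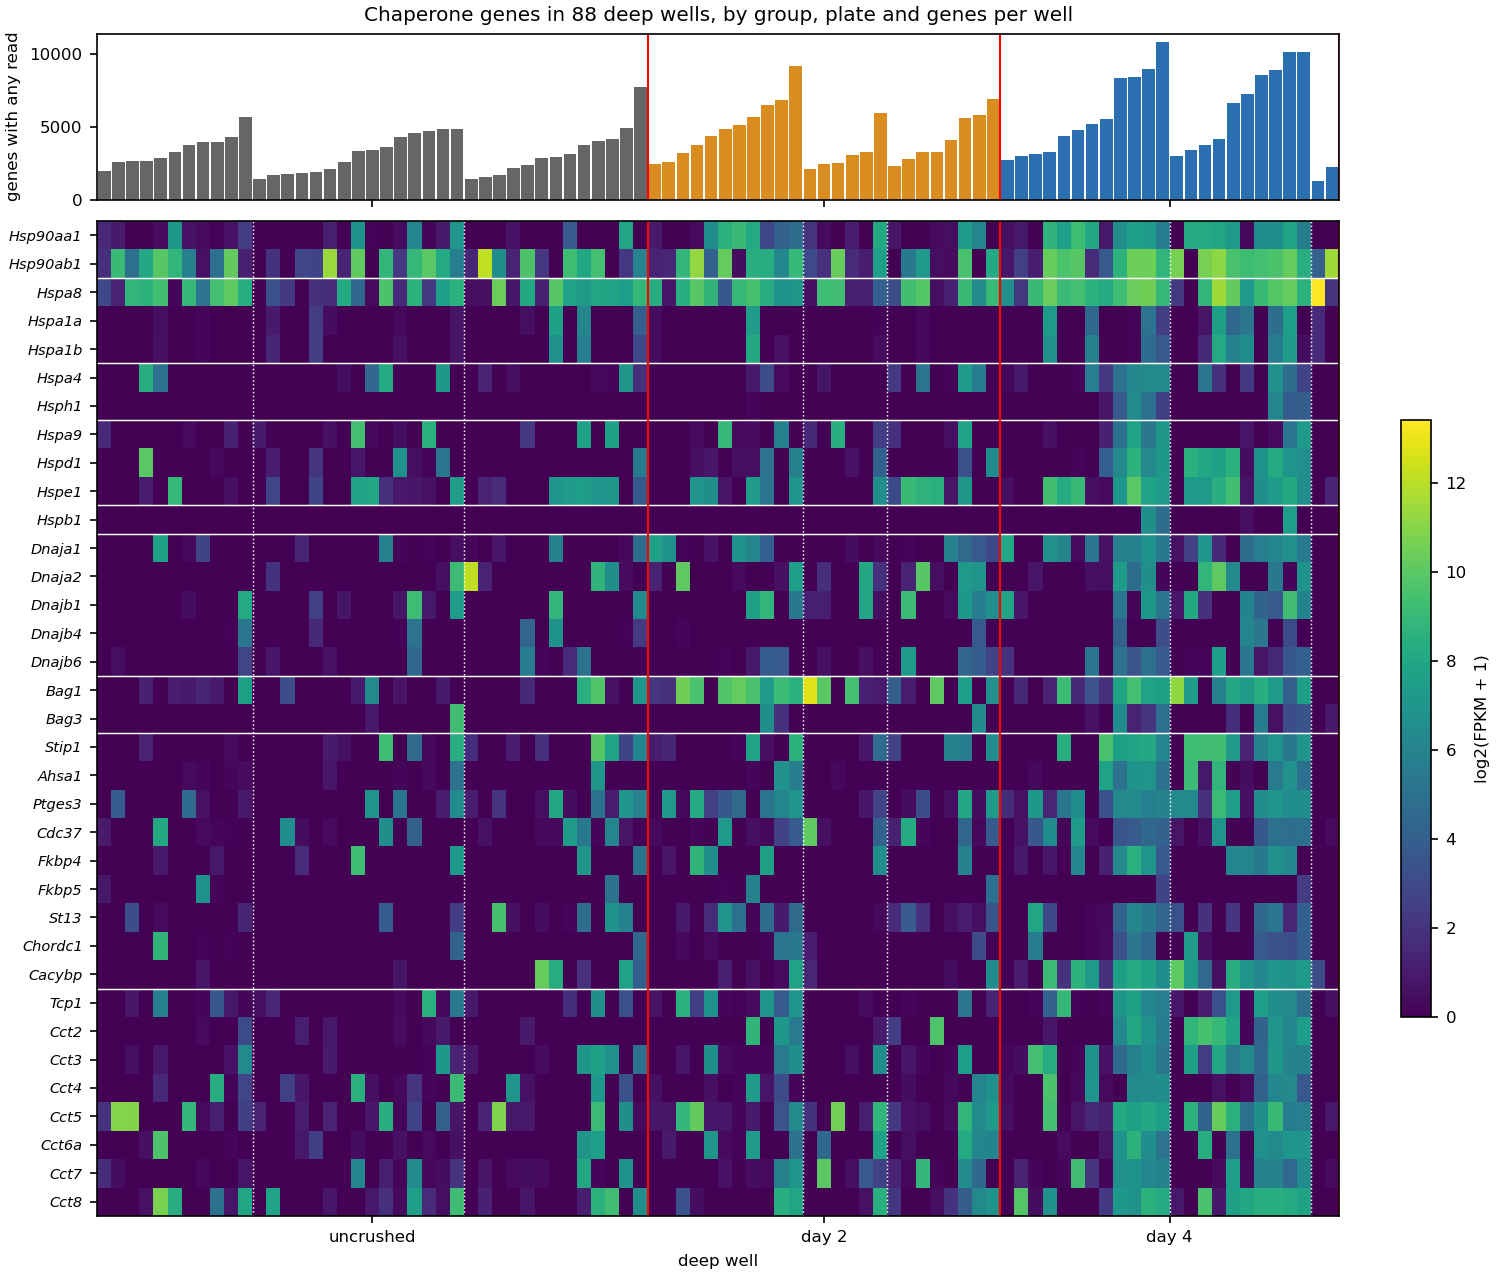
Level of the 35 chaperone genes, as log2(FPKM + 1), in each of the 88 deep wells (columns), with bars above for the number of genes with any read; wells are ordered by group, plate (dotted lines) and gene number, and white lines part the families. The gene-rich day 4 wells on the right of plates 1 and 2 are filled in nearly every row, while Hsp90ab1 and Hspa8 are filled in all groups and Bag1 across day 2.

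How many chaperone genes a well held went with how many genes of any kind it held. Across deep wells Spearman's rho between the numbers was 0.79 for uncrushed, 0.86 for day 2 and 0.91 for day 4 wells (39, 25 and 24 of them). This is a description, since both numbers come from the same library and depend on its depth and on how much RNA was captured. The 8 wells with 25 or more chaperone genes were all day 4 wells, 4 on plate 1 and 4 on plate 2. They held 8329 to 10849 genes, 10 or 11 of the 11 microglia markers, 1 to 3 of 10 neutrophil markers and 0 or 1 of 13 rod markers. Over 6000 genes were found in 1 uncrushed, 4 day 2 and 10 day 4 deep wells, which held medians of 18, 17 and 29.5 chaperone genes. Whether each such well held 1 cell was not tested.

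**Figure D4:**
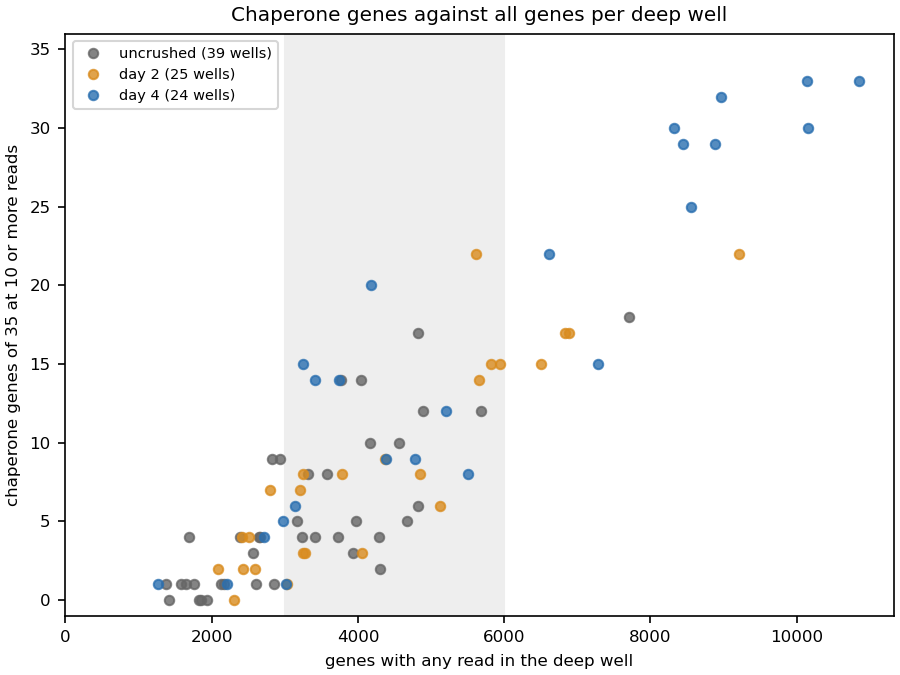
Number of the 35 chaperone genes at 10 or more reads against the number of genes with any read, 1 point for each of the 88 deep wells; the grey band spans 3000 to 6000 genes. The groups overlap within the band, and the wells with 25 or more chaperone genes, all from day 4, lie to the right of the richest uncrushed well, at 7711 genes.

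At like gene number, part of the day 4 difference remained and part did not. Wells with 3000 to 6000 genes numbered 19 uncrushed, 14 at day 2 and 10 at day 4, with median gene numbers of 4040, 4215 and 3960. The day 4 wells were 7 of plate 1 and 3 of plate 2, with 0 of plate 3, where 5 of the uncrushed wells lay. The wells of the 3 groups held medians of 6, 8 and 10.5 chaperone genes. In these wells 32 members passed the filter for day 4 minus uncrushed and 16 were at 1 or more, where 13.9% of all genes tested were, with a median of 1.05 against 0.03 over all genes. On plates 1 and 2 alone, 18 of 30 were at 1 or more, where 17.6% of all genes were, with medians of 1.55 and 0.11. The day 4 share of wells was above the uncrushed share for 20 of the 35 genes, not for all of them as before. The largest differences were those of Cacybp (3.63) and Hsp90aa1 (3.62), followed by Cct2 (2.55), Dnaja1 (2.48), Cct3 (2.43), Stip1 (2.30), Hspd1 (2.13) and Ptges3 (2.11). Cacybp was present in 1 of 19 uncrushed, 0 of 14 day 2 and 5 of 10 day 4 wells of this kind, and Hsp90aa1 in 7, 7 and 7.

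Other members lost most of their difference in the same wells. Hsp90ab1 stood at 0.04, Cct6a at 0.06, Tcp1 at 0.16 and St13 at -0.03, and Cct7, Cct8, Cct4, Dnajb1, Fkbp4 and Bag3 lay between -0.32 and -0.47. Hspa9 was the 1 member at -1 or less (-1.70), where 8.99% of all genes were, with presence in 4 of 19 uncrushed and 0 of 10 day 4 wells. Of the 8 CCT subunits 3 were at 1 or more, and their median was 0.11. Hsph1 and Hspb1 were present in none of these wells, and the wells that held them at day 4 all had over 6000 genes. The summed level of the 35 genes kept its order, with medians of 5036, 6786 and 11616 RPM.

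At like gene number the day 2 difference of Bag1 was nearer its full size than the one at day 4. In the wells with 3000 to 6000 genes it differed by 3.54 at day 2, with presence in 8 of 14 against 4 of 19 wells, and by 1.12 at day 4, with 4 of 10. By plate its day 2 difference in these wells was 6.29, 2.71 and -0.24, so it was not positive on plate 3. For day 2 minus uncrushed 7 of the 33 members tested were at 1 or more there, where 11.5% of all genes were, and 2 at -1 or less, where 5.58% were, and their median was 0.02. For day 4 minus day 2, 15 of 30 were at 1 or more, where 10.8% of all genes were, and 5 at -1 or less, where 12.5% were, with Bag1 at -2.42.

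**Figure D5:**
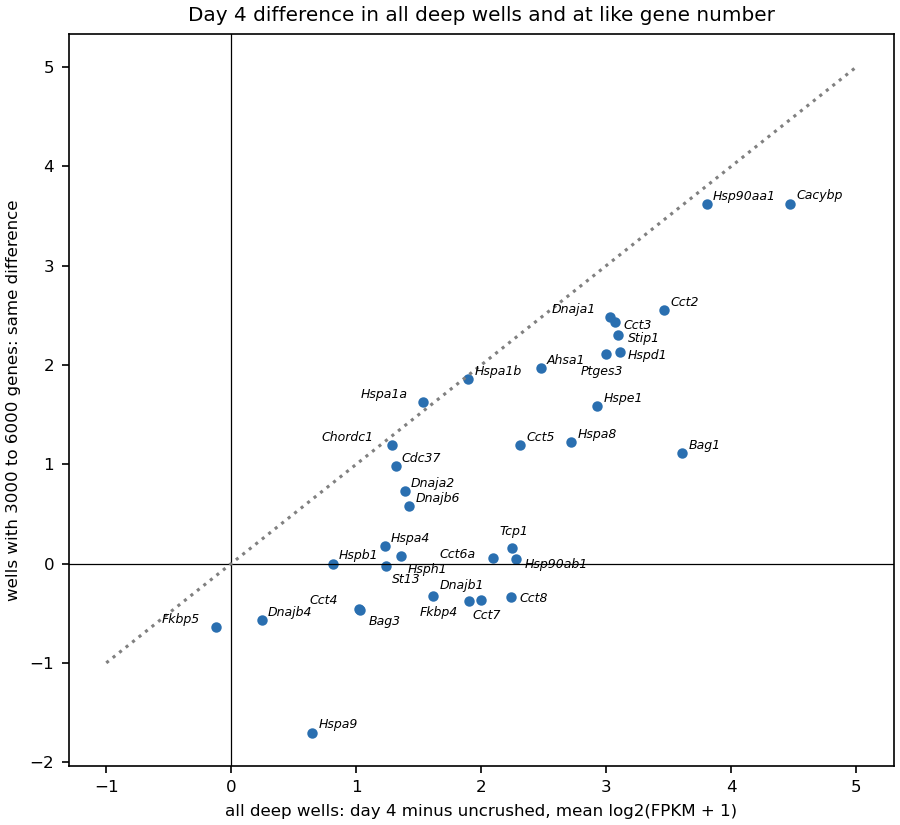
Day 4 minus uncrushed difference of mean log2(FPKM + 1) for each of the 35 chaperone genes, in all deep wells (horizontal) and in wells with 3000 to 6000 genes (vertical); the dotted line marks equal values. Cacybp and Hsp90aa1 stay above 3.5 on both axes, while Hsp90ab1, Tcp1, Cct6a, Cct7 and Cct8 drop to between -0.37 and 0.16.

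Markers of other cells moved between the groups as well. At least 3 of 10 neutrophil markers were present in 3 uncrushed, 9 day 2 and 6 day 4 deep wells, with summed levels of 0 to 101779, 0 to 92577 and 0 to 72010 RPM, while the granule genes Camp, Ngp and Ltf were at 0 in all groups. At least 3 of 13 rod markers were present in 4, 1 and 1 wells, with sums of 0 to 5724, 0 to 73429 and 0 to 100726 RPM. Monocyte markers had sums of up to 2097 RPM in uncrushed wells, 18943 at day 2 and 18291 at day 4, with 3 or more of the 6 present in 0 wells, and Vcan was at 0 in all groups. Muller glia markers had sums of 0 to 43487, 0 to 3681 and 0 to 5183 RPM with medians of 25.6, 10.5 and 91.2, and 3 or more of 8 were present in 1, 1 and 2 wells. Rlbp1, Dkk3, Clu and Car14 were at 0 in every deep uncrushed well, so the sums there came from Glul, Slc1a3, Apoe and Vim alone. Dkk3, Clu and Car14 were at 0 at day 2, and Rlbp1 and Dkk3 at day 4. These sums are therefore not a measure of Muller glia RNA. The part of monocyte and Muller glia RNA in the results was not tested. With these neutrophil-marker and rod-marker wells left out, 29 of 34 members were at 1 or more for day 4 minus uncrushed, where 23.7% of all genes were, and 14 of 32 for day 2, where 19.9% were. In the 24 uncrushed, 16 day 2 and 15 day 4 wells with at least 8 microglia markers, 33 of 35 members were at 1 or more at day 4, where 30.3% of all genes were, and 12 of 33 at day 2, where 15.2% were. Hspb1, Hsph1 and 4 more of the 35 passed the filter in this selection only through day 4, and 5 of these 6 are among the 33 at 1 or more at day 4. For day 2, 4 of the 33 tested passed only through the day 2 wells, and 1 of these 4 is among the 12. This selection keeps every deep well with over 6000 genes, which were 1 uncrushed, 4 day 2 and 10 day 4 wells, so it does not even out gene number. It holds 0 day 4 wells of plate 3 but 8 uncrushed ones, and on plates 1 and 2 alone 33 of 35 were at 1 or more at day 4, where 35.4% of all genes were. Cacybp stood at 4.31 and 5.46 at day 4 in these selections, and Bag1 at 5.20 and 4.33 at day 2. With at least 8 microglia markers the day 2 difference of Bag1 was -0.64 on plate 2, where 2 day 2 wells were left.

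The other genes of the same pathways were read on the same scale in the deep wells, against the 26.5% of all genes at 1 or more at day 4 and the 13.8% at day 2. Of the actin and tubulin genes, the classical clients of CCT, 9 of 9 tested were at 1 or more at day 4 and 7 of 9 at day 2, led at day 4 by Tubb4b (2.33) and Tubb5 (2.26). Prefoldin, which hands these clients to CCT, had 4 of 6 at day 4, led by Pfdn2 (2.84) and Pfdn1 (2.02), and 2 of 6 at day 2. Of the CCT cofactors of the phosducin-like family and Txndc9, 0 of 3 reached 1 at day 4. Among other J proteins 7 of 11 were at 1 or more at day 4 and 2 of 10 at day 2, near the share of all genes, and among other cochaperones 7 of 16, led by Fkbp1a (2.49) and Nudc (2.33), and 4 of 13. Of the heat shock factor genes Hsf1 stood at 0.57 and its binding protein gene Hsbp1 at 1.59 at day 4. Of the other HSP70, HSP110 and small heat shock genes 8 of 10 did not pass the filter at day 4. Other mitochondrial chaperones and proteases had 1 of 4 at 1 or more, the cochaperone gene Grpel1 (1.87), a share near that of all genes.

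Promoter windows were matched for 29 of the 35 genes; the others are Hspa8, St13, Hsp90ab1, Cct4, Hspa9 and Hsp90aa1. Heat shock factor 1 binds inverted repeats of GAA units, and both forms of a pair were searched, GAANNTTC and TTCNNGAA, each of which reads the same on both strands. One or the other lay in the 250 bases before a start in 13 of the 29 genes (44.8%), or 15 of their 38 promoters (39.5%), against 12.8% of 32851 RefSeq promoters. The longer forms with 1 more unit, GAANNTTCNNGAA and TTCNNGAANNTTC, which can overlap each other and the pairs, lay in 0.466% of all promoters and, among these genes, in those of Dnajb6, Hspd1 and Hspe1. Shown with these pairs in capitals are Hspe1 (chr1:55087898-55088147, plus strand), whose window shares 215 bases and the same sites with that of Hspd1 on the minus strand, and Hsph1 (chr5:149636316-149636565, minus strand) and Hspb1 (chr5:135887669-135887918, plus strand), the members found only in day 4 deep wells.
Hspe1: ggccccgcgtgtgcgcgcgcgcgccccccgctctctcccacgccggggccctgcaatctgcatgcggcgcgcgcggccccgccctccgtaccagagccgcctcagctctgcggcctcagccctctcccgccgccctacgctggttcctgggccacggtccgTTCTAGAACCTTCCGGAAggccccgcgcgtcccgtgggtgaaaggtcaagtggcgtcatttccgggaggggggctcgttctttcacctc
Hsph1: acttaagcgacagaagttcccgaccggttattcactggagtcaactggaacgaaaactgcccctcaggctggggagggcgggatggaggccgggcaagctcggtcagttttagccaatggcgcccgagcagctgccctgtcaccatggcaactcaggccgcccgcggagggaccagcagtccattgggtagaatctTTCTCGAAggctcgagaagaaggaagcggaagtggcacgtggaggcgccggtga
Hspb1: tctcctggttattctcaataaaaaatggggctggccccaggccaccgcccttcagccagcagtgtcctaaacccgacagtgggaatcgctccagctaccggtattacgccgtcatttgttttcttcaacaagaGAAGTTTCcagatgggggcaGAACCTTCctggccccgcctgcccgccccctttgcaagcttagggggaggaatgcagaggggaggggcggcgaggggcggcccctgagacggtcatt
The 13 genes with a pair had a median day 4 minus uncrushed difference of 1.90 (range 0.24 to 3.46), and the 16 without one had 2.17 (-0.12 to 4.47). At day 2 the medians were 0.58 and 0.36. Cacybp and Bag1, with the largest differences at day 4 and day 2, and the heat-inducible Dnajb1 and Bag3 had no pair in these windows.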

How the data were processed

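RNA was measured in single sorted wells, per the labels' protocols, from amplified complementary DNA tagmented with a Nextera XT kit. The deposited values are FPKM for each gene and well, made by the authors; trimming with Trim Galore 0.4.4, Trimmomatic 0.36 and cutadapt 1.16, alignment with STAR 2.7.2b and assignment with featureCounts 1.6.1 on GRCm38.p6 are named in the submitters' processing notes. Strandedness is not given in the sources used here.

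FPKM multiplied by gene length in kilobases gave RPM, which summed to 1000000 in each well. The most frequent product above 0 in a well was taken as 1 read, and 40.9% of the values under 100 reads were then whole within 0.01. Reads carry no molecular identifiers. Deep wells had at least 50000 such reads, and depth over all wells ran from 643 to 8065060. Means of log2(FPKM + 1) were compared between groups for genes that reached FPKM 1 in 5% or more of the deep wells compared, and no count model was used because many recovered reads were not whole. The code for differences was run on uncrushed deep wells with some genes scaled by a set factor, and on made-up values of known difference. This checks the arithmetic only.

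The members and lists were chosen with earlier results of these data known. Values are given in full for the 3 largest differences of each day, the most abundant member of each family by median FPKM, and Hspa1a, Hspa1b, Dnajb1, Hsp90aa1 and Bag3 as stress-inducible members. Further members are given by difference or count, and Hsph1, Hspd1 and Cct2 were described after their values were seen. Other lists name at most 2 genes. Sequences are from RefSeq tables of GRCm38.p6; the Hspa1a and Hspa1b transcripts compared are GENCODE's. The analysis ran in Python 3.11.15 with scipy 1.17.1, pandas 2.3.3, numpy 2.4.6 and matplotlib 3.10.9.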

Additional observations from a re-analysis of the deposited data

How the results depend on the processing

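Across the alternatives, on wells, plates, pseudocount, scale, filter, centring, thinning and read minimum, 192 summary values were classed as the same, 18 as moved and 3 as changed in sign. Same meant within a set ratio for a count and within 1 SD of the single-plate medians for a median difference. For a share it meant inside the exact interval, and for a number per well within 1 SD over wells. These limits are wide. The day 4 median of 2.05 was 1.05 in wells with 3000 to 6000 genes, and the day 2 median of 0.52 was 0.02, both classed as the same. Members at 1 or more follow, out of those tested, with the share of all genes at 1 or more under the same setting in brackets. For day 2 minus uncrushed, 10 of 33 in deep wells (13.8%), it was 4 of 31 with all wells (7.99%) and 6 of 30 without plate 1 (13.1%). It was 16 of 30 on plate 1 only (27.8%), 6 of 26 on plate 2 only (19.5%) and 1 of 33 with a pseudocount of 10 FPKM (3.25%). Centred on the median of all genes it was 4 of 33 (8.48%). In wells with at least 8 microglia markers on plates 1 and 2 it was 16 of 30 (25.5%). For day 4 minus uncrushed, 31 of 34 in deep wells (26.5%), it was 19 of 34 with all wells (9.4%) and 2 of 31 on plate 3 only (4.74%). It was 18 of 34 with a pseudocount of 10 FPKM (7.28%), 32 of 34 with one of 0.1 FPKM (50.4%) and 19 of 34 as a log2 ratio of mean FPKM (31.1%). In wells with 3000 to 6000 genes it was 16 of 32 (13.9%), and 18 of 30 in those on plates 1 and 2 (17.6%). For day 4 minus day 2, 22 of 35 in deep wells (12%), it was 13 of 34 with all wells (3.63%). It was 2 of 32 on plate 3 only (4.8%) and 11 of 35 with a pseudocount of 10 FPKM (2.44%). The medians over the members that passed the filter on that plate alone, a smaller set than the 35 of the plate values above, changed sign on plate 2 only for day 2 (-0.20), and on plate 3 only for day 4 minus uncrushed (-1.05) and day 4 minus day 2 (-1.65). The median day 4 share over members was 22.2% with all wells, and the median number of CCT subunits per day 4 well was 7 in wells with at least 8 microglia markers. Fewer wells enter the single-plate values; for the other settings the cause was not tested.

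Without the 18 day 4 wells tagged day 2, 27 of 34 members were at 1 or more for day 4 minus uncrushed, where 29.2% of all genes were, with a median of 2.26. The deep day 4 wells left in this setting were 10 on plate 2 and 2 on plate 3. The plate term, the selections by gene number and by microglia markers, and the numbers of members per well under each selection, were added after seeing the data. No paired analysis was possible because no label ties a well of one group to a well of another. The groups do share plates: with plate as a term in the fit, 29 of 34 members were at 1 or more for day 4 minus uncrushed, where 25.8% of all genes were, 9 of 33 for day 2, where 12.8% were, and 20 of 35 for day 4 minus day 2, where 10.5% were. In shallow wells a few reads decide a value, so the absence of a member there says little.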

Other observations

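Members also appeared in shallow wells, which entered no main comparison. Hsph1, at 0 reads in all 39 deep uncrushed wells, had 11 reads in 1 shallow uncrushed well.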
